A study of Sus scrofa with 4 samples.

Results

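The genes described here are 10 transcriptional targets of FGF and ERK signalling: the Sprouty genes SPRY1, SPRY2 and SPRY4, the Sprouty-related genes SPRED1 and SPRED2, the dual specificity phosphatase genes DUSP4, DUSP5 and DUSP6, and the ETS transcription factor genes ETV4 and ETV5. They were chosen by name, and all 10 were found among the 29837 named genes of the count table and passed the filter on low counts that left 15980 genes for testing. RNA was sequenced from LGR5-high (GFP-hi) and LGR5-negative (GFP-neg) epidermal cells sorted from the skin of 2 juvenile pigs, 88R and 95R, with 1 library per population and pig. The pigs carry H2B-GFP, a nuclear fluorescent histone fusion, knocked into the first exon of an LGR5 allele by CRISPR/Cas9 while the other allele was left unedited, and the line was founded by somatic cell nuclear transfer from clonal cell lines. Both populations of a pig therefore share the reporter allele and differ in the GFP signal on which they were sorted. GFP-low cells were sorted in the study but are not analysed here, and the GFP-negative population takes in every live cell of the peeled hair and epidermis that lacked GFP.

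Growth factor receptors such as those for FGF and EGF activate RAS, which activates the kinases RAF, MEK and ERK in turn. Active ERK raises transcription of its own inhibitors: Sprouty and SPRED proteins act on the path from receptor to RAF, and several DUSP proteins remove the activating phosphates from ERK. ETV4 and ETV5 are transcription factors whose own genes respond to FGF signals, and transcripts of several of these genes are widely read as a record of ERK output. In the hair follicle, FGF signals take part in follicle formation and in the switch between growth and rest of the hair. The libraries measure transcripts only, and not ERK phosphorylation.

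The 4 libraries held between 30696803 and 32463362 counts on named genes. Counts were scaled by TMM, and levels are given as CPM (normalized counts scaled to a common library total), which are compared here between libraries and never between genes, because no transcript lengths were at hand. LGR5 itself, whose locus drove the sorted reporter, had 132 and 188 CPM in LGR5-high and 1.26 and 3.61 CPM in LGR5-negative, pig 88R first. Within a population, the libraries of the pigs differed by more than counting error. Chi-square divided by its degrees of freedom was 21.7 between the LGR5-high libraries and 23.7 between the LGR5-negative ones. With 1 library per population and pig, the animal, the sort and the library preparation cannot be told apart in this difference. In cells sorted in bulk, fewer cells of a type and less RNA per cell cannot be told apart.

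The inhibitors and ETV genes did not move as a block. ETV4, DUSP6 and SPRED1 rose in LGR5-high cells and SPRED2 fell, while SPRY1, SPRY2, SPRY4, DUSP4, DUSP5 and ETV5 had adjusted p-values above 0.05 in the quasi-likelihood test of edgeR. The 3 higher and 1 lower of 10 members compare with 22.7% of all tested genes called higher and 22.0% called lower, so the share of called members is close to that of any gene. The median log2 fold change of the members was 0.37, beside 0.02 for all tested genes. When the pig was added to the fit as a replicate block, SPRY1 and ETV5 also rose and DUSP4 also fell. This made 5 higher and 2 lower members beside 28.5% and 27.2% of all tested genes. Fitting the pig leaves fewer degrees of freedom per gene, so p-values of that fit lean more on variance shared across genes. In normalized CPM, 6 members had both LGR5-high libraries above both LGR5-negative libraries and 3 had both below, beside 39.2% and 37.4% of all tested genes. The spread of member levels over the 4 libraries is seen in the plot of each gene by population.

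**Figure D1:**
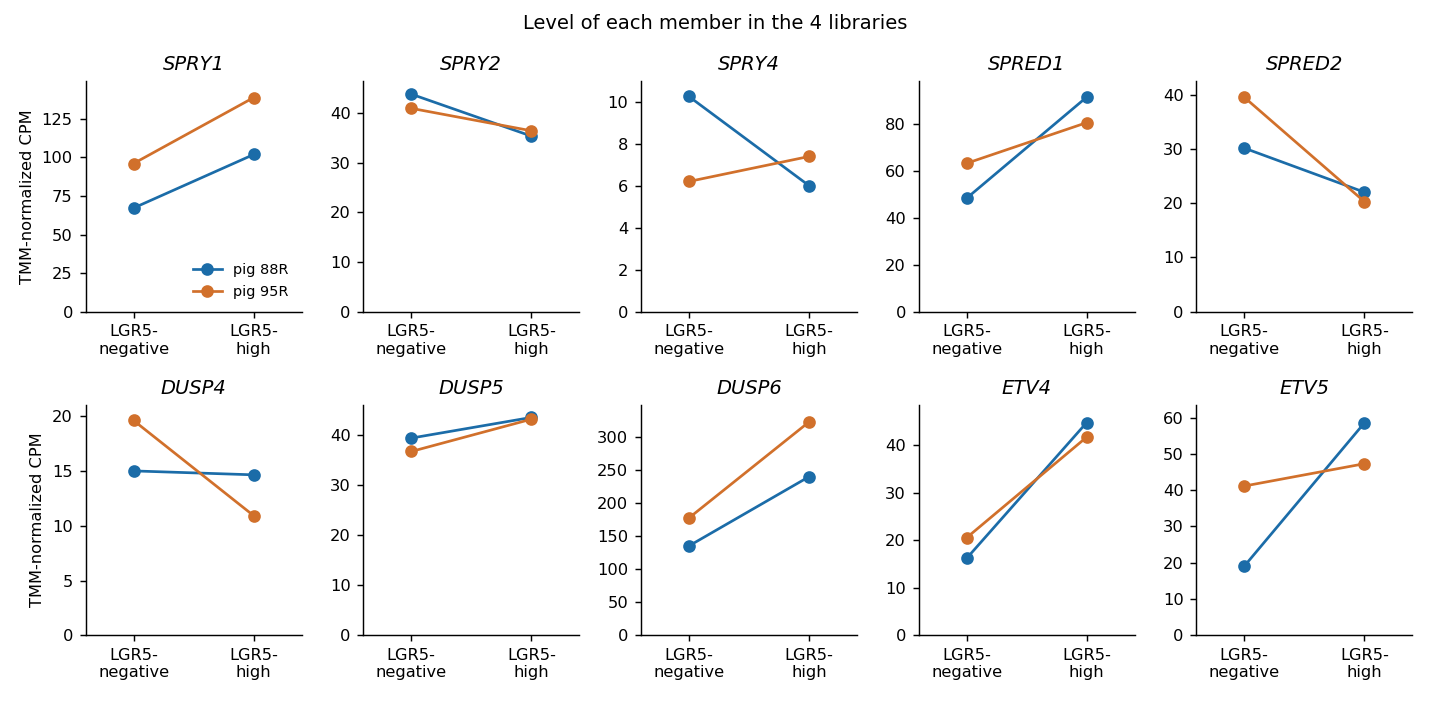
TMM-normalized CPM (vertical axes, each from 0) of the 10 members in the LGR5-negative and LGR5-high libraries, with a line joining the libraries of pig 88R (blue) and of pig 95R (orange). The lines of ETV4, DUSP6, SPRY1 and SPRED1 climb in both pigs, those of SPRED2 and SPRY2 descend in both, and those of SPRY4 cross in opposite directions.

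ETV4 showed the largest fold change of the 10 genes. It encodes an ETS factor of the PEA3 group, as does ETV5. In LGR5-high, ETV4 had 1538 counts in pig 88R and 1377 in pig 95R, and in LGR5-negative 461 and 620 in the same order, which is 44.7 and 41.7 against 16.2 and 20.5 CPM. The counts and CPM of the other genes are given with pig 88R first as well. Both LGR5-high libraries were above both LGR5-negative libraries by more than the distance between the pigs. The mean of LGR5-high was 43.2 ± 2.16 CPM (SD, n = 2 pigs) and that of LGR5-negative 18.3 ± 3.07 CPM (SD, n = 2). The log2 fold change of ETV4 was 1.24 (standard error 0.142, 95% interval 0.88 to 1.59, edgeR adjusted p = 0.00144), or 2.35-fold higher. It stayed past the threshold when any 1 library was left out, with log2 fold changes between 1.07 and 1.41. In such fits, here and for the genes that follow, the population left with 1 library is assumed to vary like the other.

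ETV5 had 2012 and 1562 counts in LGR5-high and 543 and 1243 in LGR5-negative, which is 58.5 and 47.3 against 19.1 and 41.1 CPM. The LGR5-negative library of pig 95R lay close to the LGR5-high libraries, and that of pig 88R far below them. Both LGR5-high libraries were nevertheless above both LGR5-negative libraries. The log2 fold change of ETV5 was 0.81 with a 95% interval from -0.04 to 1.66 (edgeR adjusted p = 0.106). ETV5 was therefore not called in this fit, which leaves out the pairing of libraries by pig. Pig 88R had 1.62 and pig 95R 0.20. Fitted with the replicate block, ETV5 rose by 0.89 on the log2 scale (95% interval 0.47 to 1.32, edgeR adjusted p = 0.00141), whereas DESeq2 with the block gave 0.90 and did not call it (DESeq2 adjusted p = 0.303). Without the LGR5-negative library of pig 95R ETV5 had 1.46 and was called (edgeR adjusted p = 0.00111), and without that of pig 88R it had 0.36 and was not (edgeR adjusted p = 0.141). For ETV4 the pigs had 1.46 (88R) and 1.02 (95R), so they were nearer to each other for ETV4 than for ETV5, a difference between the genes that was not tested.

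Among the phosphatase genes, DUSP6 rose in LGR5-high cells. DUSP6 is a cytoplasmic phosphatase that acts chiefly on ERK, and its transcript is among the most used readouts of FGF signalling. It had 8230 and 10638 counts in LGR5-high and 3846 and 5352 in LGR5-negative, which is 239 and 322 against 135 and 177 CPM. Pig 95R was above pig 88R in both populations, and the populations did not overlap. The log2 fold change of DUSP6 was 0.85 (standard error 0.186, 95% interval 0.39 to 1.31, edgeR adjusted p = 0.0145), or 1.80-fold higher, and the change was nearly equal in the pigs, 0.83 in 88R and 0.86 in 95R. The replicate block lowered its standard error to 0.0884 (edgeR adjusted p = 3.04e-07). Without the LGR5-high library of pig 95R the log2 fold change of DUSP6 was 0.62 and was not called (edgeR adjusted p = 0.0609).

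DUSP4 and DUSP5 encode phosphatases of the nucleus, DUSP5 with a strong preference for ERK. DUSP5 had 1494 and 1424 counts in LGR5-high and 1121 and 1108 in LGR5-negative, which is 43.5 and 43.1 against 39.3 and 36.7 CPM. The LGR5-high libraries were nearly equal and slightly above the others, and the log2 fold change of 0.19 had a 95% interval from -0.04 to 0.42 (edgeR adjusted p = 0.154). DUSP5 was called higher when TMM was replaced by library size only, where the log2 fold change was 0.41 and the median of all tested genes also moved, to 0.24. DUSP4 had 504 and 361 counts in LGR5-high and 428 and 593 in LGR5-negative, which is 14.7 and 10.9 against 15 and 19.6 CPM. Its populations nearly touched: the LGR5-high and LGR5-negative libraries of pig 88R were nearly equal, and those of pig 95R were apart. The log2 fold change of DUSP4 was -0.44 with a 95% interval from -0.95 to 0.07 (edgeR adjusted p = 0.138), and with the replicate block it was also -0.44 but called (edgeR adjusted p = 0.0347), whereas DESeq2 with the block gave -0.45 and did not call it (DESeq2 adjusted p = 0.182). Leaving out either library of pig 95R brought DUSP4 to -0.23 (LGR5-high) or -0.24 (LGR5-negative), and without the LGR5-high library of pig 88R it was -0.67, none of them called (edgeR adjusted p = 0.483, 0.438 and 0.0892). The pigs had -0.03 (88R) and -0.84 (95R).

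The SPRED genes changed in opposite directions. SPRED proteins bring the RAS inhibitor neurofibromin to the cell membrane. SPRED1 had 3143 and 2661 counts in LGR5-high and 1377 and 1910 in LGR5-negative, which is 91.4 and 80.5 against 48.3 and 63.2 CPM. SPRED1 rose by 0.62 on the log2 scale (standard error 0.147, 95% interval 0.26 to 0.99, edgeR adjusted p = 0.0182), or 1.54-fold. SPRED2 had 757 and 670 counts in LGR5-high and 859 and 1194 in LGR5-negative, which is 22.0 and 20.3 against 30.1 and 39.5 CPM. SPRED2 fell by 0.72 (standard error 0.156, 95% interval -1.11 to -0.33, edgeR adjusted p = 0.0138), or 1.65-fold more in LGR5-negative. The populations did not overlap for either gene, and the LGR5-negative libraries differed more between the pigs than the LGR5-high libraries did. Without the LGR5-high library of pig 88R, SPRED1 had a log2 fold change of 0.52 and was not called (edgeR adjusted p = 0.0818). Without the LGR5-high library of pig 95R, SPRED2 had one of -0.66 and was not called (edgeR adjusted p = 0.0791). Both were called with the replicate block (edgeR adjusted p = 1.71e-04 for SPRED1 and 1.82e-04 for SPRED2).

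Sprouty proteins restrain signalling downstream of growth factor receptors. SPRY1 had 3501 and 4583 counts in LGR5-high and 1914 and 2901 in LGR5-negative, which is 102 and 139 against 67.2 and 96.0 CPM. As for DUSP6, pig 95R was above pig 88R in both populations, and the LGR5-negative library of pig 95R reached nearly to the LGR5-high library of pig 88R. The log2 fold change of SPRY1 was 0.56 (95% interval 0.03 to 1.09, edgeR adjusted p = 0.0805), and the pigs had 0.60 (88R) and 0.53 (95R). Fitted with the replicate block, SPRY1 rose by 0.57 (95% interval 0.38 to 0.76, edgeR adjusted p = 4.05e-05), and DESeq2 without the block also called it higher (DESeq2 adjusted p = 0.0287). Leaving out 1 library moved SPRY1 to 0.32 without the LGR5-negative library of pig 88R and 0.33 without the LGR5-high library of pig 95R, neither called (edgeR adjusted p = 0.237 and 0.323), and to 0.83 without the LGR5-negative library of pig 95R, which was called (edgeR adjusted p = 0.0178).

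SPRY2 had 1214 and 1202 counts in LGR5-high and 1247 and 1236 in LGR5-negative, which is 35.3 and 36.4 against 43.8 and 40.9 CPM. Raw counts of SPRY2 were nearly level over the 4 libraries, and in CPM both LGR5-high libraries were below the others. Its log2 fold change was -0.24 with TMM (95% interval -0.47 to -0.01, edgeR adjusted p = 0.0878) and -0.02 with library size only. SPRY4 was the least counted member, with 207 and 245 counts in LGR5-high and 293 and 188 counts in LGR5-negative, which is 6.02 and 7.42 against 10.3 and 6.22 CPM. SPRY4 was the member whose populations overlapped. Its log2 fold change of -0.30 had a 95% interval from -0.99 to 0.40 (edgeR adjusted p = 0.427), and the pigs had opposite signs, -0.77 in 88R and 0.25 in 95R. The plot of fold changes gives these intervals with and without the replicate block.

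**Figure D2:**
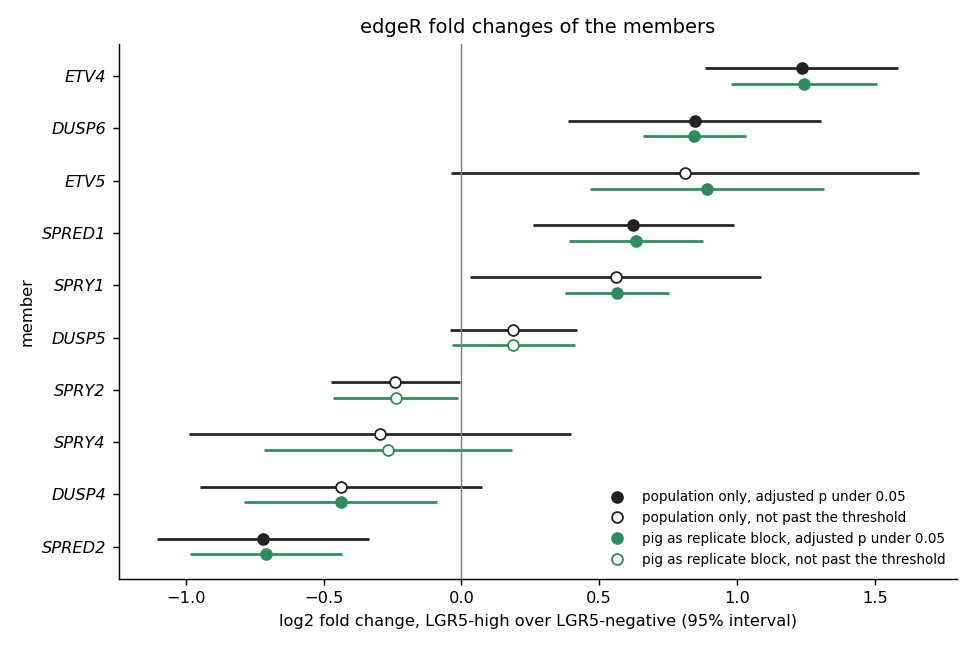
log2 fold change of LGR5-high over LGR5-negative (horizontal axis) for each member, ordered by size, with 95% intervals as bars, from the edgeR fit with the population alone (black) and with the pig as replicate block (green). Filled points have an adjusted p-value under 0.05. ETV4 is at the top with 1.24 and SPRED2 at the bottom with -0.72, and SPRY1, ETV5 and DUSP4 are filled only in the fit with the block.

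Ratios between genes of a family within a library do not depend on the scaling between libraries, and transcript lengths cancel when a ratio is compared between populations, as long as the isoforms are the same. All 8 such pairs were computed, after the values had been seen, and they are given with no test. The log2 ratio of SPRED1 to SPRED2 counts was 2.05 (88R) and 1.99 (95R) in LGR5-high and 0.68 in both LGR5-negative libraries, a difference of 1.34 between the population means. The counting standard error of a single ratio of these 2 genes lay between 0.0532 and 0.0627. It covers counting error only, and the spread between animals rests on 2 pigs.

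The log2 ratio of DUSP4 to DUSP6 was -4.03 and -4.88 in LGR5-high and -3.17 in both LGR5-negative libraries, so that DUSP4 counts were a smaller part of the pair in LGR5-high. That of SPRY1 to SPRY2 was 1.53 and 1.93 in LGR5-high and 0.62 and 1.23 in LGR5-negative. The ratios of SPRY2 to SPRY4 and of ETV4 to ETV5 overlapped between populations. For ETV4 to ETV5 they were -0.39 and -0.18 in LGR5-high and -0.24 and -1.0 in LGR5-negative, and the LGR5-negative library of pig 95R was the low one.

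**Figure D3:**
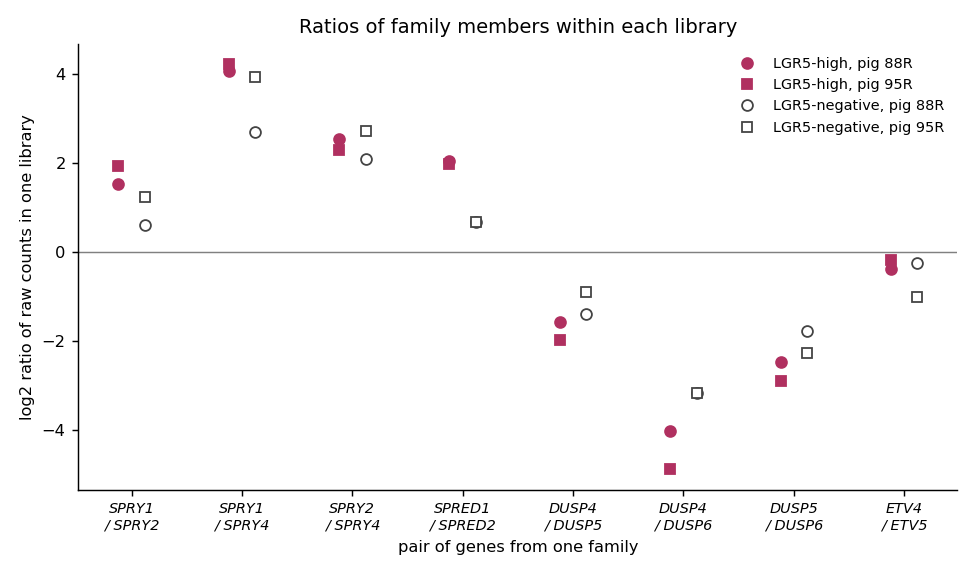
log2 ratio of the raw counts of 2 genes of a family (vertical axis) in each library, for the 8 pairs (horizontal axis), with LGR5-high filled and LGR5-negative open, pig 88R as circles and pig 95R as squares. The SPRED1 to SPRED2 points lie near 2.05 and 1.99 in LGR5-high and at 0.68 in LGR5-negative, and the ETV4 to ETV5 points overlap.

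The members also differed in how far the pigs agreed. DUSP6, SPRY1, DUSP5 and SPRY2 had per-pig log2 fold changes no more than 0.14 apart, whereas the 2 pigs were 1.42 apart for ETV5, 1.02 apart for SPRY4 and 0.81 apart for DUSP4. Over all tested genes the median distance between the pigs was 0.20, and 3.12% of genes were at least as far apart as ETV5, 6.96% as SPRY4 and 10.7% as DUSP4. The median distance among the members was 0.48. In fold, ETV5 was 3.06-fold higher in LGR5-high in pig 88R and 1.15-fold in pig 95R, and ETV4 was 2.76-fold and 2.03-fold higher. With 1 library per population and pig, a difference between the pigs could not be tested. The plot of one pig against the other shows ETV5, SPRY4 and DUSP4 away from the diagonal.

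**Figure D4:**
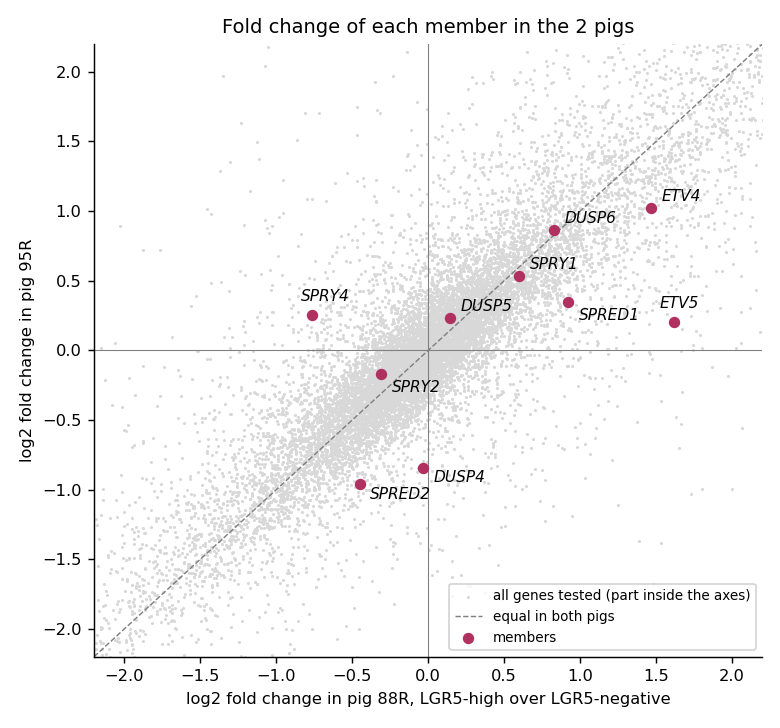
log2 fold change of LGR5-high over LGR5-negative in pig 95R (vertical axis) against that in pig 88R (horizontal axis) for the 10 members (red, named) over all tested genes inside the axes (grey), with the line of equal change dashed. DUSP6, SPRY1, DUSP5 and SPRY2 lie near the line, ETV5 lies far to its right at 1.62 and 0.20, and SPRY4 is the member with opposite signs in the 2 pigs, at -0.77 and 0.25.

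Other genes of the same pathway were read from lists written with earlier results of these data known. The counts of called genes in each list stand beside 22.7% of all tested genes called higher and 22.0% called lower. Of 8 receptor tyrosine kinase genes of keratinocytes, 7 were tested, and 4 of them fell in LGR5-high. The median log2 fold change over the 7 was -0.81. MET, the receptor of hepatocyte growth factor, had a log2 fold change of -1.43 (edgeR adjusted p = 4.15e-04), and the FGF receptor genes FGFR3 and FGFR2 had -1.33 and -1.12 (edgeR adjusted p = 3.32e-04 and 2.66e-04). FGFR1 had 1397 and 1500 counts in LGR5-high and 1144 and 1040 counts in LGR5-negative, a log2 fold change of 0.21 (edgeR adjusted p = 0.210). Transcripts of FGFR2 and FGFR3 were therefore lower in the population in which ETV4 and DUSP6 were higher. Among the 10 adaptor and scaffold genes, 3 rose and 5 fell: GAB2, an adaptor of receptor signalling, rose by 2.52 (edgeR adjusted p = 3.65e-04). FRS3, an FGF receptor substrate with 29 and 30 counts in LGR5-negative, rose by 1.41 (edgeR adjusted p = 0.0154), and the scaffold gene KSR1 had -1.32 (edgeR adjusted p = 7.07e-04).

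Of the 10 RAS and kinase genes, 2 rose and 4 fell, beside 22.7% and 22.0% of all tested genes. BRAF, which encodes a RAF kinase, rose by 0.80 (edgeR adjusted p = 7.92e-04) and MAP2K1, which encodes MEK1, by 0.60 (edgeR adjusted p = 0.0456). With library size only, 2 of the 10 rose and 1 fell, beside 5473 higher and 2326 lower of 15980 tested genes.

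Negative regulators outside the 10 members changed in both directions. Of 17, 16 were tested, 7 rose and 6 fell, beside 22.7% and 22.0% of all tested genes. Their median log2 fold change was 0.12. With library size only 8 rose and 3 fell, beside 5473 higher and 2326 lower of 15980 tested genes. DUSP10, a phosphatase that acts mainly on p38 and JNK kinases, had 2412 and 2074 counts in LGR5-high and 110 and 189 counts in LGR5-negative, a log2 fold change of 3.71 (edgeR adjusted p = 1.92e-04). DUSP2, a nuclear phosphatase, rose by 2.66 (edgeR adjusted p = 5.12e-04), and SPRED3, the third SPRED gene, rose by 2.40 (edgeR adjusted p = 0.00136) from 21 and 29 counts to 152 counts in each LGR5-high library. SPRED3 and SPRED1 were thus higher and SPRED2 lower in LGR5-high. IL17RD and ERRFI1 lay just outside the rule for named genes and were picked after their values were seen. IL17RD, a membrane inhibitor of FGF signalling, rose by 2.39 (edgeR adjusted p = 0.00236). ERRFI1, an inhibitor of the EGF receptor, had -2.37 (edgeR adjusted p = 6.16e-05). SPRY3 had at most 4 counts in any library and was not tested.

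Of 9 other ETS factor genes and the ETV repressor CIC, 1 rose and 6 fell, beside 22.7% and 22.0% of all tested genes. Their median log2 fold change was -0.74. ELK3 rose by 3.06 (edgeR adjusted p = 4.90e-04), whereas ETS2 and ETV3 had -1.89 and -1.60 (edgeR adjusted p = 9.25e-05 and 1.66e-04). ETV1, the third gene of the PEA3 group beside ETV4 and ETV5, had 100 and 57 counts in LGR5-high and 130 and 92 counts in LGR5-negative, a log2 fold change of -0.71 that was not past the threshold (edgeR adjusted p = 0.158) and was called with the replicate block (edgeR adjusted p = 0.0214). CIC, which represses ETV4 and ETV5 in other cells, had -0.09 (edgeR adjusted p = 0.368), and the sign turned under upper quartile scaling (0.01) and library size only (0.14).

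Of 9 further ERK-responsive genes, 2 rose and 4 fell, beside 22.7% and 22.0% of all tested genes. PHLDA1 rose by 2.58 (edgeR adjusted p = 5.46e-04), FOSL1, a component of AP-1, had -2.50 (edgeR adjusted p = 6.28e-05), and MYC had -1.80 (edgeR adjusted p = 2.67e-04). Called genes of this list lay in both directions, as they did over all tested genes, and a difference in ERK output was not tested. The plot of gene lists shows each gene of these groups beside the members.

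**Figure D5:**
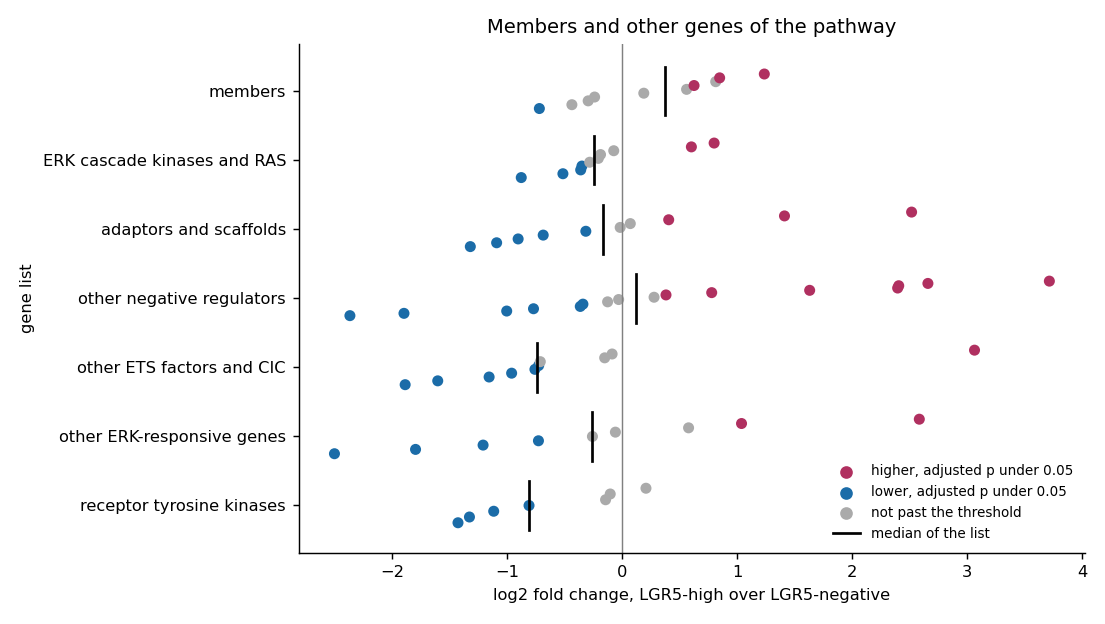
log2 fold change of LGR5-high over LGR5-negative (horizontal axis) for each tested gene of the members and of 6 lists of the pathway (rows), red if called higher, blue if called lower and grey if not called, with a black bar at the median of each row. The medians are 0.37 for the members, -0.74 for the other ETS factors and CIC and -0.81 for the receptor tyrosine kinases, and every row but the receptors holds called genes on both sides of 0.

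Markers of the cell types a sort could hold also differed between the populations. Summed over 6 markers, differentiated keratinocyte genes lay at 5448 to 6006 CPM in LGR5-high and 56051 to 65238 CPM in LGR5-negative. The sum of 6 hair follicle stem cell markers was 1172 to 1209 against 129 to 157 CPM, and it includes LGR5, whose locus drove the sort. NFATC1, most of the stem cell sum in LGR5-negative, was not called (log2 fold change 0.19, edgeR adjusted p = 0.308). IVL was the differentiated marker not called (-0.16, edgeR adjusted p = 0.780). The 5 basal keratinocyte markers found were abundant in both, at 29102 to 32306 against 33904 to 36266 CPM, most of it from KRT5. Taken singly, ITGA6 and COL17A1 fell by log2 fold changes of -0.94 and -0.47 (edgeR adjusted p = 0.00289 and 0.00960). KRT5, TP63 and KRT15 were not called, and KRT15 was called higher with the replicate block. The 8 melanocyte markers summed to 64.2 to 64.5 CPM in LGR5-high and 86.7 to 264 CPM in LGR5-negative. Most of the LGR5-high sum came from MITF and DCT, which were not called, nor was KIT, while TYR, TYRP1, PMEL, MLANA and SOX10 fell. The melanocyte sum was highest in the LGR5-negative library of pig 95R. Among the members, that library was the higher of the 2 LGR5-negative libraries for ETV5, SPRED1, SPRED2, DUSP4, DUSP6, SPRY1 and ETV4. It was the lower for SPRY2, SPRY4 and DUSP5. The share of all tested genes that were higher in it was not computed. The same library was the higher of the 2 in the sums of leukocyte, endothelial, smooth muscle and pericyte, hair follicle stem cell and dissociation markers. In the other sums it was the lower. The 7 leukocyte markers summed to 7.11 to 8.99 against 102 to 144 CPM, with the T cell genes CD3E and CD2 at no more than 3 counts in any library, and the 4 endothelial markers to 4.71 to 6.63 against 17.1 to 18.6 CPM. The 4 smooth muscle and pericyte markers were higher in LGR5-high, at 11.5 to 11.6 against 4.07 to 4.86 CPM with DES at no more than 2 counts, while the sum of the 6 fibroblast markers, most of it from DCN and COL1A1, was 232 to 449 against 225 to 346 CPM. Taken singly, 4 fibroblast markers fell in LGR5-high (PDGFRA, LUM, COL3A1 and DCN), COL1A1 rose by 1.85 (edgeR adjusted p = 0.0374) and PDGFRB was not called. The 3 dermal papilla markers summed to 3.27 to 4.22 against 2.42 to 2.91 CPM. Neither ALPL nor CORIN was called (edgeR adjusted p = 0.191 and 0.965), and SOX2, at no more than 5 counts in any library, was not tested. The 4 Schwann cell markers, of which ERBB3 is also a keratinocyte gene, summed to 182 to 208 against 322 to 331 CPM. Genes of the response to tissue dissociation, 8 of them found and DUSP1 among them, summed to 12434 to 15809 against 16989 to 20982 CPM. The part of these cells and of this response in the values of the members was not tested.

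For the called member with the most counts in each direction, the genes with the nearest pattern over the 4 libraries were found by the root mean square distance of centred log2 CPM. Nearest to DUSP6 were PSMG2, CACNA2D2 and PTPN6, at distances of 0.0196, 0.0390 and 0.0479, and nearest to SPRED2 were RAB27A, ECE2 and RASGRP3, at 0.0291, 0.0392 and 0.0410. These distances rest on 4 libraries and describe the profiles only.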

How the data were processed

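Poly(A) RNA of LGR5-high and LGR5-negative cells from 2 pigs was analysed, with 1 library per population and pig. The authors deposited whole-number counts for each gene symbol, not normalized. The submitters' processing notes name Trimmomatic 0.36, STAR 2.5.2b and featureCounts of Subread 1.5.2. The genome build, annotation and strand setting are not given in the sources used here, so reads of a gene and of a transcript on its other strand cannot be told apart. All 29837 gene symbols matched RefSeq (Sscrofa11.1), used for names only. In it, SPRY1 and SPRED1 overlap another entry, with at most 2 and 20 counts per library. An entry without a name, 0.360% to 0.626% of each library, was left out.

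Counts were tested in R 4.3.3 with edgeR 4.0.16 (filterByExpr at a count minimum of 10 and a total of 15, TMM, 2-sided quasi-likelihood test, population as the single term), and p-values were adjusted by Benjamini-Hochberg over all 15980 genes tested. A gene was called where this value was under 0.05. Standard errors and 95% intervals come from the same fit, and per-pig fold changes use a prior count of 2. A gene with 3 counts had 0.0873 to 0.105 CPM, a limit from counting error only. An exact permutation test of 2 against 2 libraries cannot reach the threshold and was not made. The populations share their animals, so the pig is a true pairing, and the deviations of a pig's libraries from their population's mean correlated across genes (r = 0.37). The members and lists were chosen with earlier results of these data known. From each list, the 3 called genes with the largest absolute change are named, except 1 that is not reported here, and IL17RD, ERRFI1, SPRY3, FGFR1, ETV1 and CIC were added after their values were seen.

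Alternatives were other scalings (DESeq2 size factors, upper quartile, library size only), other filters, the pig as replicate block, DESeq2 1.42.0 with and without the block, limma-voom (limma 3.58.1), Student's t-test on log2(CPM + 1), which the study's methods name, and leaving out each library. The scripts were tested on simulated data. No sequence, coordinate or transcript length was used here, and the planned promoter search was not run. Plots were drawn with matplotlib 3.10.9.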

Additional observations from a re-analysis of the deposited data

How the results depend on the processing

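ETV4, DUSP6, SPRED1 and SPRED2 kept their direction and their call in 9 of the 10 alternatives that used all 4 libraries, and the exception for each was Student's t-test. No member changed sign in those alternatives. The members called moved from 3 higher and 1 lower to 5 and 2 with the replicate block in edgeR, to 5 higher with library size only, and to 0 and 0 with the t-test, which had 1 and 1 at an unadjusted p-value under 0.05. DESeq2 called 4 and 1, with and without the block. Beyond SPRY1, ETV5 and DUSP4, the block in edgeR changed no member's call. Leaving out 1 library in turn gave between 2 and 5 higher members, 5 of them without the LGR5-negative library of pig 95R, and between 0 and 1 lower, with 1 at an unadjusted p-value under 0.05 in edgeR's quasi-likelihood test where there were 0 (without the LGR5-high library of pig 95R). SPRY4 had log2 fold changes from -0.62 to 0.10 with 1 library left out, and its sign turned to 0.10 without the LGR5-negative library of pig 88R (edgeR adjusted p = 0.774). Over all genes, 3632 were higher and 3508 lower in the main test, 5473 and 2326 with library size only, 544 and 502 with the t-test, and 2279 to 3169 and 2139 to 3004 with 1 library left out. Library size only moved the median over all tested genes from 0.02 to 0.24 and the share of higher among called genes from 50.9% to 70.2%. The cause of these shifts was not tested. SPRY4, the member with the fewest counts, and ETV5, the member with the largest distance between pigs, have the widest 95% intervals.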
